A study of Sus scrofa with 23 samples.

Results

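The genes described here are 7 antiviral effectors that interferon induces: OAS1, ISG15, IFIT1, ISG20, RSAD2, MX1 and SP110. They were chosen by name, with earlier results of these data known. Their probe sets are those that the platform annotation gives to 1 of these genes alone. That rule found 13 probe sets, of which 10 were tested and 3 were array controls. The 7 genes were among 6765 genes with a probe set of their own. Pig bone marrow cells of Large White x Landrace F1 pigs were grown into macrophages with recombinant human CSF1 and exposed to 100 ng/ml of lipopolysaccharide (LPS) from Salmonella enterica serotype minnesota Re 595. The labels give 6 arrays at 0 h (unstimulated), 6 at 2 h, 6 at 7 h and 5 at 24 h of LPS, from the same 3 pigs. Cultures were duplicated for every pig and time, save pig 3 at 24 h, which has 1. Macrophages were derived in culture and plated overnight before LPS, so all groups share the CSF1 growth step.

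Macrophages that sense LPS through TLR4 switch on interferon beta, which leaves the cell and binds the receptor made of IFNAR1 and IFNAR2. The kinases JAK1 and TYK2 then activate transcription factors, and STAT2 and IRF9 take part in turning on a shared set of antiviral genes. The members act at different steps of a viral life cycle. OAS1 senses double-stranded RNA and makes the messenger that activates RNase L. IFIT1 binds foreign RNA, ISG20 is an exonuclease that degrades RNA, and RSAD2 (viperin) is a radical SAM enzyme that makes a chain-terminating nucleotide. MX1 is a dynamin-like GTPase that traps viral components, ISG15 is a ubiquitin-like protein that is attached to other proteins, and SP110 is a nuclear body protein.

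The values are probe set intensities, here on the log2 scale, and array medians ran from 69.5 to 73.9 on the linear scale. The labels failed a check of identity. EIF1AY, a Y-linked gene, did not match the sex given in the labels on 8 of 23 arrays. Its log2 intensity was 3.60 to 4.08 on 8 arrays and 8.16 to 9.45 on 15. Of 22 arrays with a labelled duplicate culture, 0 had that duplicate as their most similar array. On probe sets outside all gene lists used here, 11 pairs of arrays were each other's most similar, with r of 0.995 to 0.998. All 11 were neighbouring columns of the deposited table with 1 labelled pig, and in 0 of 11 was the labelled time the same. Every comparison between times is therefore of arrays as labelled and shows neither a response to LPS nor its absence. Levels are also given by column position from 1 to 23. No time or animal was assigned to a column from its position.

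All 7 members varied widely between arrays. From lowest to highest array, 7 of 7 spanned 2 log2 units or more, as 13.3% of all genes did, and 6 of 7 spanned 4 or more, against 2.26% of all genes. The median gene spanned 0.96. As the members were chosen with earlier results of these data known, these shares only describe them. OAS1 had the widest span of the members, 8.04 log2 units, which ranked 6 among 6765 genes. ISG15 spanned 6.68, IFIT1 6.66, ISG20 6.62, RSAD2 6.18 and MX1 5.21. SP110 spanned 2.40 and ranked 601.

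**Figure D1:**
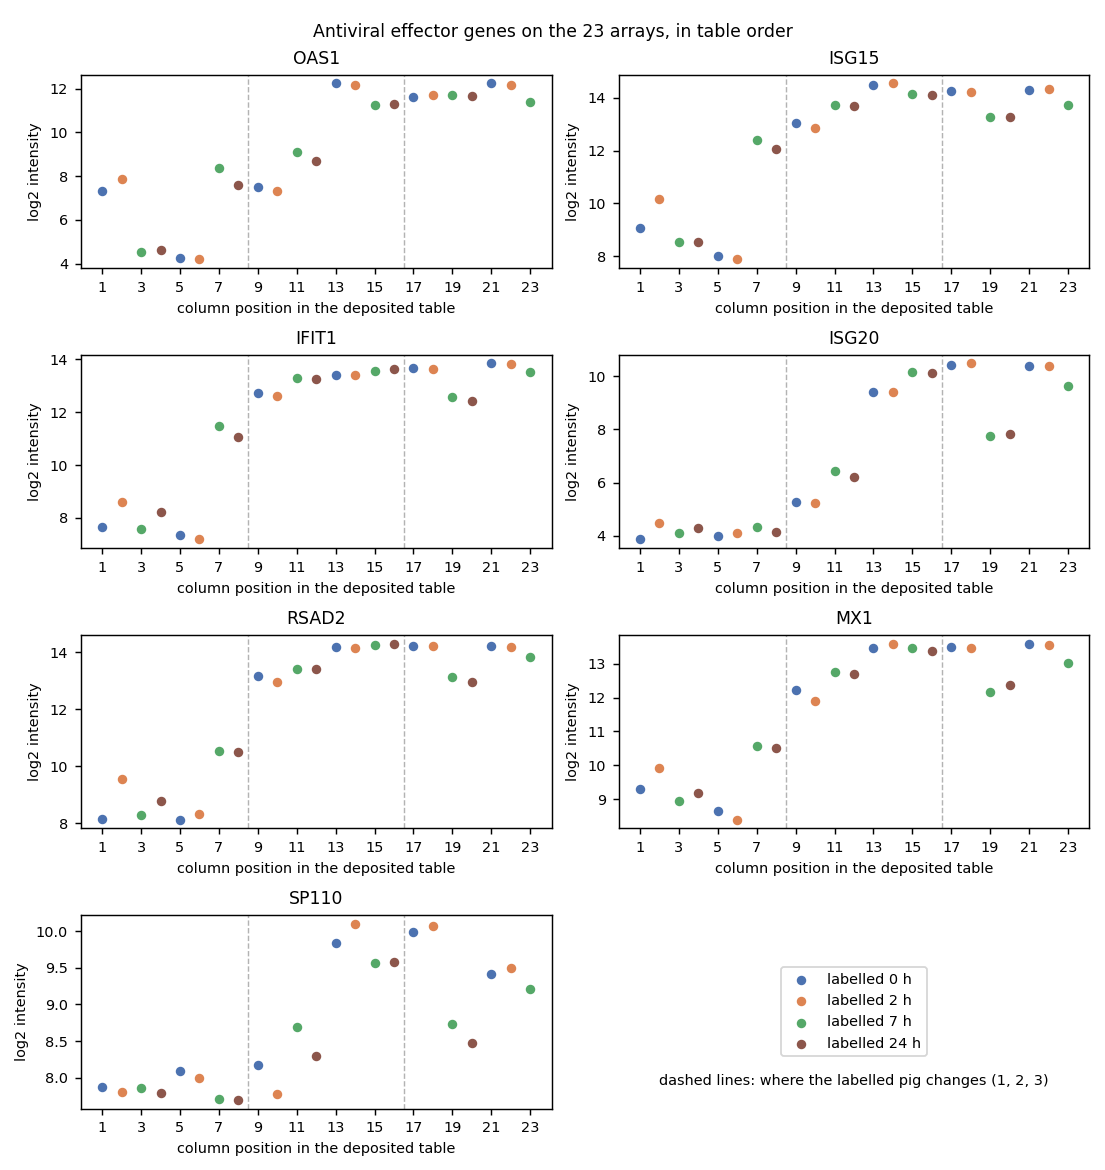
Log2 intensity of each member (vertical axis) on the 23 arrays in the order of the deposited table (horizontal axis), coloured by labelled time, with dashed lines where the labelled pig changes. Neighbouring columns of different labelled times sit together, and all 7 genes are higher on columns 13 to 18 than on columns 1 to 6.

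For a description by position, the columns were taken in 4 consecutive runs, 1 to 6, 7 to 12, 13 to 18 and 19 to 23, chosen with the levels already known. Labelled pig 1 fills columns 1 to 8, pig 2 columns 9 to 16 and pig 3 columns 17 to 23. Each run of 6 holds arrays of all 4 labelled times. On columns 13 to 18 all 7 members lay above every array of columns 1 to 6, as did 13.9% of all genes. All 7 also lay above every array of columns 7 to 12 (12.3% of all genes). These counts use the probe set of highest mean for each gene. The other 2 probe sets of IFIT1 overlapped between columns 7 to 12 and columns 13 to 18. On columns 19 to 23 all 7 lay above columns 1 to 6 (13.9% of all genes). On columns 7 to 12, 4 of 7 lay wholly above columns 1 to 6, against 5.47% of all genes: ISG15, IFIT1, RSAD2 and MX1. OAS1, ISG20 and SP110 overlapped between those runs. Columns 19 to 23 lay wholly above columns 7 to 12 for 2 of 7, OAS1 and ISG20, against 14.2% of all genes. The column positions were not tested.

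The RNA-binding and RNA-degrading members differed in where they stood high. OAS1 had 7.33 and 7.85 on columns 1 and 2, and 4.54, 4.62, 4.25 and 4.20 on columns 3 to 6. Columns 1 and 2 therefore overlapped columns 7 to 12, where OAS1 had 8.38, 7.60, 7.51, 7.30, 9.09 and 8.68. It had 12.24, 12.15, 11.27, 11.28, 11.63 and 11.70 on columns 13 to 18. On columns 19 to 23 it had 11.71, 11.64, 12.23, 12.15 and 11.38, so the last 11 columns held OAS1 within 1 log2 unit of each other.

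IFIT1 was low on columns 1 to 6, at 7.65, 8.60, 7.58, 8.22, 7.34 and 7.19. It stood at 11.47 and 11.05 on columns 7 and 8 and at 12.71, 12.63, 13.28 and 13.27 on columns 9 to 12. Columns 13 to 18 had 13.39 at the lowest, 13.60 at the median and 13.66 at the highest. Columns 19 and 20 were lower, at 12.58 and 12.43, than columns 21 to 23, at 13.84, 13.83 and 13.51. IFIT1 thus covered most of its range between columns 6 and 12.

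ISG20 was low on more columns. It ran from 3.86 to 4.48 (median 4.11) on columns 1 to 6, and had 4.34 and 4.14 on columns 7 and 8. Columns 9 to 12 had 5.25, 5.23, 6.43 and 6.19. Its values were 9.41, 9.39, 10.15, 10.12, 10.43 and 10.48 on columns 13 to 18, above columns 1 to 12. Columns 19 and 20 stood at 7.74 and 7.81, between its low and its high levels, while columns 21 to 23 had 10.39, 10.36 and 9.64.

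The viral replication inhibitors RSAD2 and MX1 resembled each other, with r = 0.99 over the 23 arrays. This was not particular to them, as ISG15 and IFIT1 also had r = 0.99. RSAD2 had 8.14, 9.55, 8.27, 8.76, 8.12 and 8.33 on columns 1 to 6. It had 10.52 and 10.48 on columns 7 and 8, and 13.15, 12.96, 13.42 and 13.40 on columns 9 to 12. It held at 14.16 to 14.30 on columns 13 to 18, and ran from 12.96 to 14.21 on columns 19 to 23.

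MX1 had 9.31, 9.91, 8.94, 9.19, 8.65 and 8.39 on columns 1 to 6. It had 10.57 and 10.51 on columns 7 and 8, and 12.22, 11.90, 12.77 and 12.71 on columns 9 to 12. Columns 13 to 18 lay between 13.39 and 13.60. As for RSAD2, columns 19 and 20 were lower, at 12.17 and 12.38, than columns 21 to 23, at 13.58, 13.57 and 13.03.

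The protein modifier ISG15 had 9.05, 10.15, 8.52, 8.55, 7.99 and 7.88 on columns 1 to 6. All of columns 7 to 12 stood above these, at 12.41, 12.06, 13.03, 12.86, 13.75 and 13.69. Columns 13 to 18 ran from 14.12 to 14.55, and columns 19 to 23 from 13.28 to 14.32.

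SP110, the nuclear body protein, was the narrowest. It ran from 7.79 to 8.10 on columns 1 to 6 and from 7.70 to 8.69 on columns 7 to 12, and these runs overlapped. Columns 13 to 18 had 9.84, 10.10, 9.56, 9.58, 9.99 and 10.07. Columns 19 to 23 had 8.73, 8.47, 9.41, 9.49 and 9.21, so all of them lay below columns 13 to 18. That held for 1 of 7 members and for 10.6% of all genes. On the other probe set of SP110 these runs overlapped.

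Set on each gene's own range, where 0% is its lowest array and 100% its highest, the members separated on columns 7 to 12. The median there was 82.3% for IFIT1, 79.8% for RSAD2, 76.0% for ISG15 and 70.4% for MX1. It was 47.2% for OAS1, 20.9% for ISG20 and 11.6% for SP110. On columns 13 to 18 the medians lay between 92.4% for SP110 and 98.6% for RSAD2. On columns 19 to 23 they were 62.8% for SP110 and 87.4% or more for the other members. IFNB1, the interferon beta gene, showed another order, with a median of 89.7% on columns 7 to 12, 52.0% on columns 13 to 18 and 13.1% on columns 19 to 23.

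**Figure D2:**
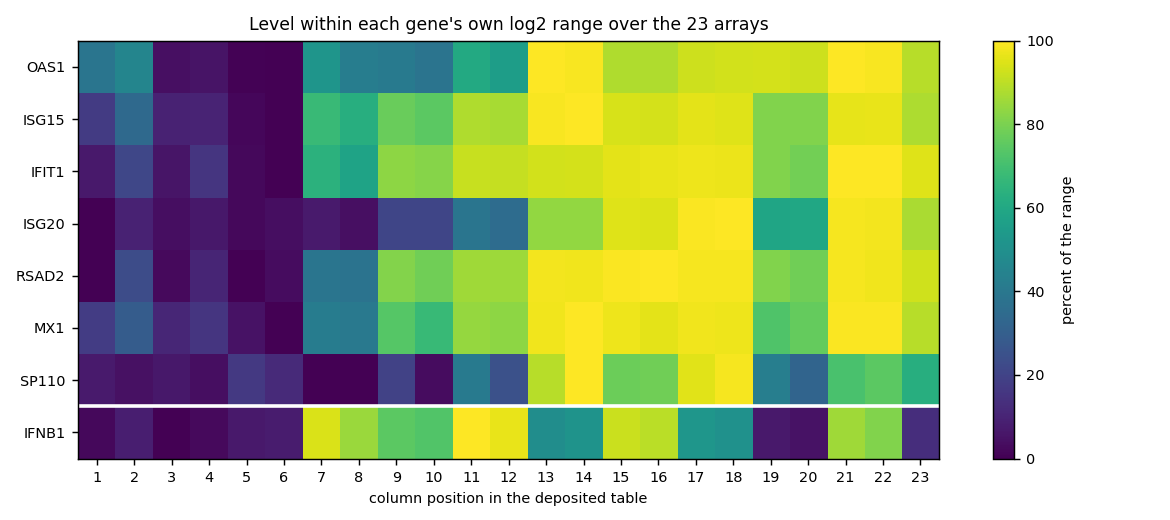
Level of each member and of IFNB1 (rows) on the 23 arrays in table order (horizontal axis), as a percent of that gene's own log2 range, from 0 at its lowest array to 100 at its highest. ISG15, IFIT1, RSAD2 and MX1 have medians of 70.4% to 82.3% on columns 7 to 12, where ISG20 and SP110 have 20.9% and 11.6%.

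IFNB1 itself had 3.27 to 3.75 on columns 1 to 6 and 7.51 to 9.08 on columns 7 to 12. On columns 13 to 18 it had 6.11, 6.25, 8.60, 8.47, 6.32 and 6.20, and on columns 19 to 23 it had 3.66, 3.54, 8.25, 7.99 and 4.03. On columns 19, 20 and 23 IFNB1 was therefore near its level on columns 1 to 6, while OAS1 on those columns had 11.71, 11.64 and 11.38.

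Differences inside the pairs of most similar arrays were small beside these spans. The median difference over the 11 pairs was 0.04 for RSAD2, 0.06 for ISG15, 0.07 for ISG20, 0.08 for IFIT1 and SP110, 0.09 for OAS1 and 0.12 for MX1. These pairs were picked for their similarity on other probe sets, so their differences may be lower than those of pairs not picked this way. Whether they reflect measurement noise or differences between cultures was not tested. Columns 1 and 2 were the exception: their difference was the largest of the 11 for 5 of 7 members, at 1.41 for RSAD2, 1.11 for ISG15, 0.95 for IFIT1, 0.62 for ISG20 and 0.60 for MX1. For the same genes the next largest pair difference was 0.49, 0.36, 0.65, 0.23 and 0.32. Between labelled duplicate cultures the median difference was 2.98 for OAS1, 1.06 for ISG15, 0.90 for RSAD2, 0.86 for MX1, 0.68 for IFIT1, 0.58 for SP110 and 0.38 for ISG20. The cultures labelled as duplicates thus differed more, by the median, in every member than the pairs of most similar arrays.

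The question of the series is how expression changes over 24 h of LPS. Because the labels failed the check of identity, tests between labelled times cannot answer it. By the labels none of the 7 members passed such a test, which does not show that they did not respond to LPS. At the labelled 0 h OAS1 ran from 4.25 to 12.24 with a median of 9.57, at 2 h from 4.20 to 12.15 (median 9.78), at 7 h from 4.54 to 11.71 (median 10.18) and at 24 h from 4.62 to 11.64 (median 8.68). Each labelled time therefore held nearly the whole range of the gene. ISG20 likewise ran from 3.86 to 10.43 at 0 h (median 7.33), 4.10 to 10.48 at 2 h (7.31), 4.11 to 10.15 at 7 h (7.08) and 4.14 to 10.12 at 24 h (6.19). RSAD2 ran from 8.12 to 14.21 at 0 h (median 13.67), 8.33 to 14.21 at 2 h (13.56), 8.27 to 14.26 at 7 h (13.27) and 8.76 to 14.30 at 24 h (12.96). All 4 labelled times overlapped for these genes.

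**Figure D3:**
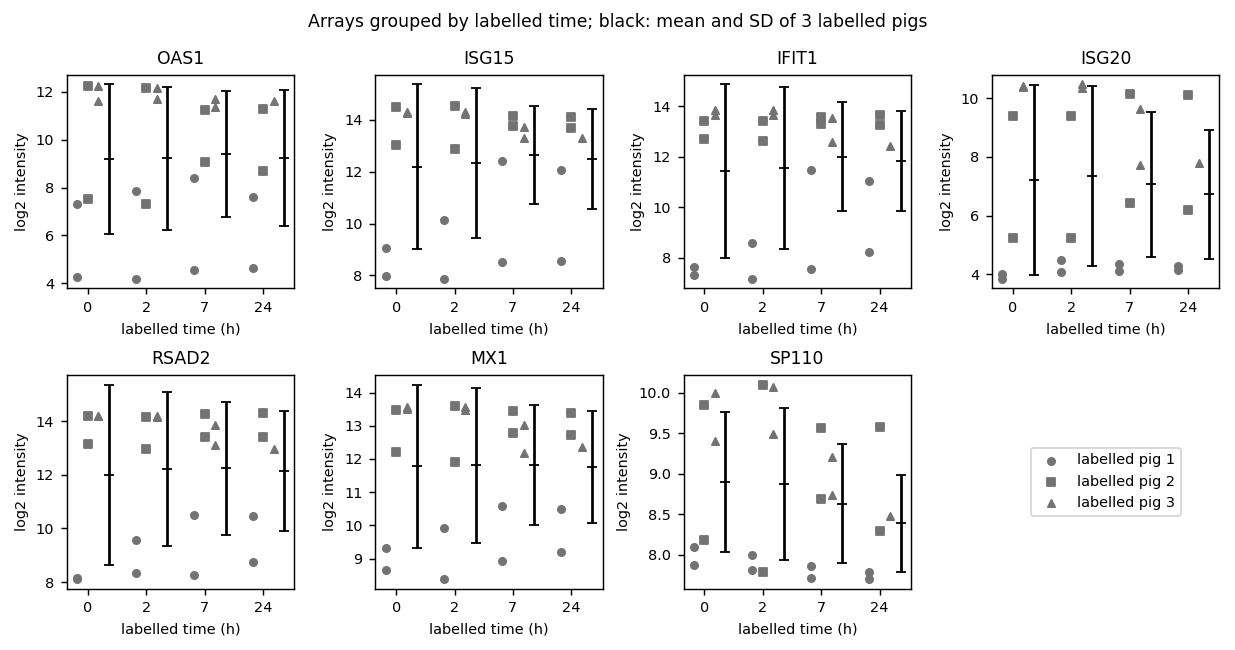
Log2 intensity of each member (vertical axis) by labelled time in h (horizontal axis); grey symbols are arrays by labelled pig, and black bars are the mean and SD of 3 labelled pigs. The labelled times overlap for every member, and the SD between labelled pigs reaches 3.43 for IFIT1 at 0 h. As the labels failed the check of identity, this SD is no measure of spread between animals.

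Between the labelled 2 h and 0 h, limma called 0 of 7 members (0 of their 10 probe sets), against 0.0125% of all probe sets, and 0 of 10 had an unadjusted p under 0.05. The members' median difference was 0.12 log2 units, against -0.01 over all genes. OAS1 differed by 0.03 ± 0.18 (SE; 95% interval -0.39 to 0.44), with means of 9.20 ± 3.12 (SD, n = 3 labelled pigs) at 0 h and 9.23 ± 2.98 at 2 h. The largest difference was that of RSAD2, 0.22 ± 0.43 (interval -0.76 to 1.21). The SD between labelled pigs is not the error of these differences, since the fit has a term for the labelled pig. Adjusted p in the limma fit was 1.00 for all 10 probe sets.

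Between the labelled 7 h and 0 h the limma count was again 0 of 7, against 0% of all probe sets, with 0 of 10 at an unadjusted p under 0.05. The median difference of the members was 0.20. IFIT1 had the largest, 0.56 ± 0.59 (SE; interval -0.78 to 1.91), and SP110 the lowest, -0.27 ± 0.24 (interval -0.82 to 0.28). Adjusted p in the limma fit lay between 0.993 and 0.998.

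Between the labelled 24 h and 0 h limma called 0 of 7, against 0.00417% of all probe sets, with 0 of 10 at an unadjusted p under 0.05. The median difference was 0.05. SP110 had -0.51 ± 0.24 (SE; interval -1.06 to 0.04), with means of 8.90 ± 0.86 (SD, n = 3 labelled pigs) at 0 h and 8.39 ± 0.60 at 24 h. ISG20 had -0.50 ± 0.65 (interval -1.98 to 0.98). Adjusted p in the limma fit lay between 0.914 and 0.992.

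Between the later labelled times limma also called 0 of 7. For 7 h against 2 h, where 0.00417% of all probe sets passed, the members' differences ran from -0.27 for ISG20 to 0.45 for IFIT1. For 24 h against 7 h, with the same 0.00417%, they ran from -0.35 for ISG20 to -0.07 for MX1. In both, 0 of 10 probe sets had an unadjusted p under 0.05. Without the 8 arrays against their labelled sex, and without any single labelled pig, 0 members passed in any of the 5 comparisons. Since each pair of most similar arrays holds 1 array labelled 0 h and 1 labelled 2 h, or 7 h and 24 h, the SEs are no measure of spread for comparisons made inside pairs. Fitted on the labelled 0 h and 2 h alone, the 10 probe sets of the members had SEs of 0.05 to 0.17, against 0.18 to 0.65 in the fit of all times. There 3 of 10 had an unadjusted limma p under 0.05, as did 2498 of all 23999 probe sets, and 0 of 10 passed adjustment. Without labelled pig 3, 6 of 10 had an unadjusted limma p under 0.05 for 7 h against 0 h (1465 of all 23999 probe sets). The count was 5 of 10 for 24 h against 0 h (1920 of all), 2 of 10 for 7 h against 2 h (1687) and 1 of 10 for 24 h against 7 h (1213). Again 0 of 10 passed adjustment. The members correlate with each other, so these are not counts of independent probe sets. The other alternatives gave at most 1 of 10 in a comparison. Fewer cells with the transcript and less RNA per cell cannot be told apart in these bulk samples.

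**Figure D4:**
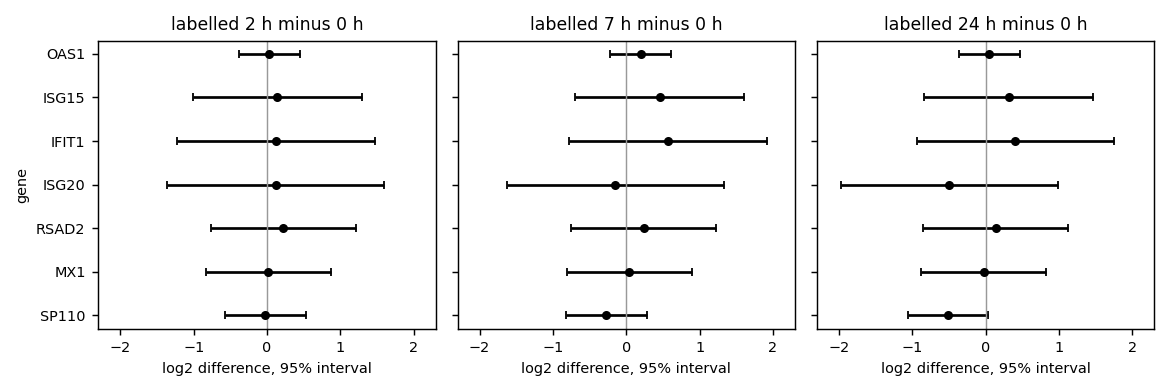
Log2 difference from the labelled 0 h (horizontal axis) for each member (vertical axis) at the labelled 2, 7 and 24 h; points are limma estimates over 3 labelled pigs and bars their 95% intervals. Every interval includes 0.

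Genes with more than 1 probe set gave correlated patterns, except for the array controls, but not every separation of column runs held on each probe set. The 3 probe sets of IFIT1 spanned 6.66, 6.57 and 4.01 log2 units, and the latter 2 followed the one that stands for the gene with r = 0.996 and r = 0.966 over the 23 arrays. On those 2, columns 13 to 18 were not wholly above columns 7 to 12. The former had 12.25 on column 12 against 12.21 on column 13, the latter 9.74 on column 10 against 9.06 on column 13. The 2 probe sets of SP110 spanned 2.40 and 2.55 (r = 0.97). The wider one had 9.04 on column 22, above 8.94 on column 13, so its columns 19 to 23 were not wholly below columns 13 to 18. RSAD2 had 1 tested probe set, and 3 array controls that the annotation also gives to RSAD2 stayed within 0.96, 1.02 and 1.20 log2 units, with r of -0.57, -0.35 and -0.18 against the tested one. Those controls ran from 12.32 to 13.28, from 11.23 to 12.25 and from 8.97 to 10.17. They do not follow the tested RSAD2 probe set, and which transcript they detect was not tested.

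Over the 23 arrays the 21 pairs of members correlated with r from 0.71 (IFIT1 and SP110) to 0.99 (RSAD2 and MX1), with a median of 0.89. These values describe arrays that form near-identical pairs and stand in separate levels, so they carry no p. On columns 13 to 23 alone (11 arrays), OAS1 had r of 0.14 with IFIT1, 0.03 with ISG20, 0.13 with RSAD2, 0.29 with MX1, 0.23 with SP110 and 0.45 with ISG15. OAS1 ran only from 11.27 to 12.24 there, while ISG20 ran from 7.74 to 10.48. The part of this narrow range in the low r of OAS1 was not tested. On the same arrays the other members correlated with each other at 0.74 or more, from 0.74 for IFIT1 and SP110 to 0.98 for IFIT1 and ISG20.

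The non-member genes most like the mean profile of the 7, by Pearson r over the 23 arrays, were TNFSF10 (0.99), STK17A (0.99) and PHF11 (0.99). TNFSF10, the death ligand TRAIL, ran from 3.20 to 11.35. USP18, which removes ISG15 from proteins, was the most like RSAD2 (r = 0.98) and MX1 (r = 0.99) and ran from 7.50 to 12.75. DDX58 (RIG-I), a sensor of viral RNA, was next for RSAD2 (0.98) and the third for MX1 (0.98). PARP9 was the most like ISG20 (0.99), STAT2 the most like SP110 (0.98), IL18BP the most like ISG15 (0.98), DMXL2 the most like IFIT1 (0.98) and RSF1 the most like OAS1 (0.97). By Spearman's rho the order changed: of the 3 genes most like each, it shared 1 with Pearson's r for the mean profile, OAS1, RSAD2 and SP110, and 0 for the other members.

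Of the other genes of the pathway, limma called 0 in any labelled comparison, with adjusted p of 0.914 or higher. It also called 0 of all 6765 genes in each, so this count does not set the pathway apart. Among 11 ligands and receptors, 6 were measured, with a median span of 1.64. IFNAR2 had 9.36 to 9.56 on columns 1 to 6 and 11.23 to 11.49 on columns 7 to 12, and IFNAR1, its partner chain, had 8.96 to 9.25 and 9.11 to 9.40 there. On columns 19 to 23 IFNAR1 had 8.32 to 8.43, below all other columns. The share of all genes below all other columns there was not computed. Below columns 13 to 18 alone it was 10.6%. IFNG, the interferon of T and NK cells, stayed between 3.36 and 4.10.

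Among 11 JAK-STAT and IRF factors, 10 were measured and 5 spanned at least 2 log2 units. All 10 lay above columns 1 to 6 on columns 13 to 18 (13.9% of all genes), and 6 of 10 on columns 7 to 12 (5.47% of all genes). IRF1, an early transcription factor of the response, was highest on columns 7 to 12 (12.85 to 13.35), against 11.80 to 12.31 on columns 13 to 18 and 8.24 to 9.43 on columns 1 to 6. IRF7, which amplifies interferon production, had 7.78 to 8.03 on columns 1 to 6, 7.82 to 10.26 on columns 7 to 12, 10.81 to 11.45 on columns 13 to 18 and 10.51 to 11.85 on columns 19 to 23. SOCS1, an inhibitor of JAK kinases, spanned 5.65, and IRF8 spanned 3.96.

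Among 12 RNA and DNA sensors and their adaptors, 3 were measured. DDX58 spanned 6.16 and ZBP1, a sensor of Z-form nucleic acid, 4.77, while the adaptor MAVS spanned 0.94. Of 6 enzymes that attach or remove ISG15, only USP18 had a named probe set, with a span of 5.25.

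Of 40 other antiviral effectors, 18 were measured, 15 spanned at least 2 log2 units and their median span was 3.67. Columns 13 to 18 lay above columns 1 to 6 for 16 of 18 (13.9% of all genes), and columns 7 to 12 for 6 of 18 (5.47% of all genes). XAF1 ran from 6.19 to 12.32 and IFIT2, a relative of IFIT1, from 7.69 to 12.73. MX2, the paralogue of MX1, had 6.35 to 6.82 on columns 1 to 6, 9.04 to 11.07 on columns 7 to 12, 9.95 to 10.91 on columns 13 to 18 and 8.48 to 10.10 on columns 19 to 23. MX2 thus overlapped between columns 7 to 12 and columns 13 to 18, where MX1 did not. TAP1, a peptide transporter of antigen presentation, ran from 8.86 to 13.02.

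The labelled cell type was checked against its markers. AIF1 lay between 12.62 and 13.36 and TYROBP between 12.61 and 13.14 on all arrays, and SPI1, the lineage transcription factor, between 9.57 and 10.31. CD14 ran from 7.13 to 11.00, CD163 from 7.85 to 11.36 and MRC1 from 6.20 to 8.71. ITGAM, at 4.39 to 5.03, and MARCO, at 5.58 to 6.15 on the 23 arrays, spanned less than 1 log2 unit. CSF1R, CD68, LYZ and MSR1 had no named probe set of their own. CD3D stayed between 5.61 and 6.31, CD3E between 4.21 and 4.99 and CD79B between 4.10 and 4.51, with spans of 0.70, 0.78 and 0.40 log2 units. JCHAIN, the other measured B and plasma cell marker, ran from 7.06 to 9.23.

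Some markers of other cells did vary. Of 10 measured T and NK cell markers, 2 spanned at least 4 log2 units, IL7R from 4.91 to 10.98 and CD2 from 5.18 to 10.45. Of these 10, 3 lay above columns 1 to 6 on columns 13 to 18 and 2 on columns 19 to 23. In either run 13.9% of all genes did. The summed intensity of the list ran from 290.0 to 3275 at the labelled 0 h, 270.2 to 2826 at 2 h, 316 to 1966 at 7 h and 317 to 1581 at 24 h. Of 5 granulocyte markers all 5 spanned at least 2 log2 units, with S100A9 from 9.41 to 13.73. On columns 13 to 18, 0 of 5 lay above columns 1 to 6, against 13.9% of all genes. On columns 19 to 23, 2 of 5 lay wholly above columns 1 to 6 (13.9% of all genes), S100A9 at 13.56 to 13.73 and LTF at 7.23 to 9.18. ELANE, at 5.05 to 5.99, lay wholly below its 6.89 to 8.10 on columns 1 to 6. The summed granulocyte intensity ran from 1193 to 13160 at the labelled 0 h, 1217 to 14947 at 2 h, 1402 to 13952 at 7 h and 1197 to 15746 at 24 h. The endothelial marker TEK ran from 5.71 to 8.28 and the erythroid marker HBB from 6.01 to 8.35, and both were wholly lower on columns 19 to 23 than on columns 1 to 6. The share of all genes lower in this way, as ELANE, TEK and HBB were, was not computed. Of 7 stromal markers 3 spanned at least 4, with LUM from 3.23 to 9.38. Above columns 1 to 6 lay 1 of 7 on columns 13 to 18 and 0 of 7 on columns 19 to 23, against 13.9% of all genes in either run. Their summed intensity ran from 508 to 3123 at 0 h, 546 to 3059 at 2 h, 492 to 2579 at 7 h and 630 to 2707 at 24 h by label. The part of these cells in the levels of the members was not tested.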

How the data were processed

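RNA of 23 samples was hybridized to Affymetrix porcine arrays with 1 dye. The authors deposited intensity values on a linear scale, for which the submitters' processing notes name affy and RMA, with versions not given in the sources used here. The design had assumed log2 values; log2 was taken here, with no further normalization. The table holds 24123 probe sets; tests ran on the 23999 that are not among the 124 array controls. Symbols follow RefSeq's table of Sscrofa11.1, matched by gene identifier. Each gene was represented by its probe set of highest mean. Duplicate cultures were averaged to 12 pig-by-time means and fitted with limma (version 3.58.1, R 4.3.3), time and labelled pig as terms, 6 residual degrees of freedom, with Benjamini-Hochberg adjustment over all probe sets and a threshold of 0.05. The pig term follows the series description, by which the same pigs supplied every time. For a labelled pig, deviations from the mean of each time correlated between times with r of 0.27 to 0.97. Each labelled pig fills neighbouring columns, and the pairs of most similar arrays lie inside them. As the labels failed the check of identity, this r does not show pairing by animal. The fit was tested on simulated data with independent arrays and true labels. That test does not cover the near-identical pairs and failed labels found here. The number of arrays limits the precision, and no genome sequence was used. Samples were grouped by labels. Named genes were the 7 members, the 3 genes most like each and, per list, mostly the widest-ranging genes; other list and marker genes were named after their values were seen. The members, lists and column runs were chosen with earlier results of these data known. The alternatives changed the pig block, the use of cultures, the times fitted, the filter, the normalization and the arrays.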

Additional observations from a re-analysis of the deposited data

Results flagged for a closer look

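1 array stood far from the rest in 2 of 28 combinations of member and labelled time. Chance alone gives about 1.4 for independent combinations under true labels. Here ISG15 and IFIT1 correlated with r = 0.99 and the labels failed the check of identity, so 1.4 is no yardstick. Both combinations were of the same array, labelled pig 1, culture 1 at 7 h, which is column 3 of the table. ISG15 was at 8.52 there, against 12.41 to 14.14 on the other arrays of that label, and IFIT1 at 7.58, against 11.47 to 13.57. On this array EIF1AY did not match the sex in the labels. Column 3 is itself one of columns 1 to 6, on which ISG15 ran from 7.88 to 10.15 and IFIT1 from 7.19 to 8.60.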

How the results depend on the processing

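Under 10 alternatives, 0 of 350 recomputed differences of the 7 members passed the limma threshold, with adjusted p from 0.547 to 1.00, and 45 had the other sign than the values given above; since none was called in either fit, those signs carry no direction. The span of IFIT1 fell from 6.66 to 5.59 with the mean of its probe sets; the other recomputed spans of the members moved by at most 0.13, that of ISG15 after quantile normalization. The counts of all probe sets called were not stable. They were 3, 0, 1, 1 and 1 for the labelled 2, 7 and 24 h each against 0 h, then 7 h against 2 h, then 24 h against 7 h. Without the replicate block (labelled pig) they were 2, 0, 2, 3 and 1. On the 23 single arrays, with a random block for each pig and time, they were 30, 0, 15, 28 and 21, and with only the 2 labelled times compared 19, 0, 0, 0 and 0. Quantile normalization again gave 0, 0, 0, 1 and 1. Leaving out any single labelled pig gave 0 to 0 in each comparison, and leaving out the arrays against their labelled sex gave 0, 1, 3, 1 and 0. Centring on array medians and leaving out dim probe sets kept each count. The causes were not tested.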
